A study of Saccharomyces cerevisiae with 14 samples.

Results

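Small nucleolar RNAs (snoRNAs) were examined in CRAC libraries of budding yeast. All 77 features that the deposited tables list as snoRNAs were taken, out of 21289 features in all, whatever their values. They comprise 47 box C/D snoRNAs, 29 box H/ACA snoRNAs and NME1, the RNA subunit of RNase MRP, which the annotation files with the snoRNAs. The class of each was assigned from its name, from the known yeast snoRNAs. Annotated spans were 78 to 490 bases for box C/D snoRNAs, with a median of 98, and 161 to 1004 for box H/ACA snoRNAs, with a median of 204.

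In CRAC, ultraviolet light crosslinks RNA to a tagged protein in living cells, the protein is purified under harsh conditions, and the RNA fragments left on it are sequenced as cDNA. The 14 libraries came from BY4741 cells (a laboratory strain, *his3Δ leu2Δ met15Δ ura3Δ*) grown at 20°C or 30°C and came in pairs of replicates. At both temperatures the groups were untagged cells without any tag or added deletion, cells with *HEL2* tagged at its own locus (Hel2-HTP::URA3) and the same tagged strain with new1-delta::KanMX6, called *new1Δ* here. At 20°C a further group carried New1-HTP::URA3 with no deletion. Hel2 is a ubiquitin ligase that recognizes collided ribosomes, and New1 is a cytosolic relative of elongation factor eEF3. The HTP tag holds histidines, a TEV protease site and protein A. The labels give the same medium, lacking tryptophan, for all cultures, whereas the study's methods name one that also lacked uracil for those at 20°C. RNase digestion times, size selection and other steps of library preparation differed between temperatures too, so temperature, medium and preparation cannot be told apart. Within 20°C, the study's methods give Hel2-HTP a shorter RNase digestion and a smaller volume of beads than New1-HTP and untagged cells. Comparisons of Hel2-HTP with either group at 20°C therefore cannot tell the tag from the preparation.

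Box C/D snoRNAs base-pair with rRNA and direct 2′-O-methylation by Nop1 in a particle with Nop56, Nop58 and Snu13. Box H/ACA snoRNAs direct pseudouridylation by Cbf5 in a particle with Nhp2, Nop10 and Gar1. A few, such as U3, U14 and snR30, act in the cleavage of pre-rRNA, and snR4 and snR45 guide acetylation of 18S rRNA. These RNAs work in the nucleolus, whereas Hel2 and New1 act on cytosolic ribosomes. The untagged libraries are therefore given beside the tagged ones for the shares, the classes and many of the named snoRNAs.

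The sequences below are those of snoRNAs on which the results turn, read 5′ to 3′ from the RefSeq copy of the R64 genome. In box C/D snoRNAs, capitals mark a TGATGA (box C) in the first 30 bases and the last CTGA (box D) in the last 15 bases. In the box H/ACA snoRNA, capitals mark the ACA in the last 12 bases. The first 2 are the snoRNAs that passed the test between *new1Δ* and wildtype, snR74 lies beside snR75 in the same cluster and had the fewest tagged reads of all, snR40 had the highest level, snR128 is U14, and snR39 and snR59 lie in introns of a pair of duplicated genes. The last, snR10, was the box H/ACA snoRNA of second highest level.
snR75: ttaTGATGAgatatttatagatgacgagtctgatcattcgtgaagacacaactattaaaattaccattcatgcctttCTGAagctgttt
snR24: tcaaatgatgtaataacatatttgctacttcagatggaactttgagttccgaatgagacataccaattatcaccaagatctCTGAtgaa
snR74: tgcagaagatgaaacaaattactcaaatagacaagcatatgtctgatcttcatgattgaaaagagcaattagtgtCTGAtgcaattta
snR40: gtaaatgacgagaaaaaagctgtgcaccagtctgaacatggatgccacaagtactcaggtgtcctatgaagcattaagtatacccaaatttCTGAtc
snR128: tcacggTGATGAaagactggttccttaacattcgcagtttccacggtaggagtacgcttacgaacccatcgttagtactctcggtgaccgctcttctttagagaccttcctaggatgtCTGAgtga
snR39: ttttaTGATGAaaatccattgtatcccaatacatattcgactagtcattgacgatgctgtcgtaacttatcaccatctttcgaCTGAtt
snR59: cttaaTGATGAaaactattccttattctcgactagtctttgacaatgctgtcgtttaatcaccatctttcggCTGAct
snR10: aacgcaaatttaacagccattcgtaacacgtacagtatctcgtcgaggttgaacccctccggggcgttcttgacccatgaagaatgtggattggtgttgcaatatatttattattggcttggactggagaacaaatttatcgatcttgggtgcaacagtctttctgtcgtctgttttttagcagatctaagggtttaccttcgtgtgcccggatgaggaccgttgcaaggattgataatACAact

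On the R64 assembly, snR75 lies at chrXIII:297918-298006 (plus strand), snR74 at chrXIII:298138-298225 (plus) and snR24 at chrXIII:499984-500072 (minus, in the intron of *ASC1*). snR40 lies at chrXIV:89210-89306 (plus), snR128 at chrX:139566-139691 (minus), snR39 at chrVII:365163-365251 (minus, in an intron of *RPL7A*), snR59 at chrXVI:173827-173904 (plus, in an intron of *RPL7B*) and snR10 at chrVII:345986-346230 (plus). The exact TGATGA was found in 37 of 47 box C/D snoRNAs and 1 of 29 box H/ACA snoRNAs, against 2.00% of the first 30 bases of all 6457 annotated genes (searched in the same window on the sense strand). CTGA was found in the last 15 bases of 45 box C/D snoRNAs and 1 box H/ACA snoRNA, against 8.21% of all genes, and ACA in the last 12 bases of 18 of 29 box H/ACA and 8 of 47 box C/D snoRNAs, against 12.4%. Stretches of at least 10 bases complementary to rRNA that end 0 to 2 bases before a CTGA were found in 26 box C/D snoRNAs. In snR75 this was tagatgacgag, complementary to bases 2285 to 2295 of 25S rRNA, in snR24 caccaagatct, complementary to bases 1433 to 1443 of 25S rRNA, and in snR74 agacaagcatatg, complementary to bases 25 to 37 of 18S rRNA. snR39 and snR59 hold nearly the same stretch, tcaccatctttcg and tcaccatctttcgg, against 25S rRNA, and were 74.4% identical over 90 aligned positions. The copies of U3, snR17a and snR17b, were 81.6% identical over their whole annotated spans, the highest value among pairs of members of similar length. Identity of the mature RNAs was not computed, and reads may be divided between these copies. snR10, snR17a and snR60 each overlap an open reading frame on the same strand (YGL088W, *IRC13* and YJL047C-A), and reads there cannot be assigned to one of the 2 features.

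The libraries differed widely in depth. Tagged libraries held 908646 to 2899277 mapped reads, whereas untagged ones held 1160029 and 67981 at 30°C and 823 and 65841 at 20°C. Reads on all features summed to more than the mapped reads in each library, and which features shared reads was not tested. The deleted gene *NEW1* had 0 and 7 reads in *new1Δ* at 30°C and 0 in both *new1Δ* libraries at 20°C. It had 105 to 1192 reads in Hel2-HTP wildtype. Untagged replicate 1 at 20°C had 2 snoRNA reads, which limits every comparison that uses it. The study's methods describe the pairs as biological replicates.

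Most counts were either 0 or large. In the Hel2-HTP wildtype library of replicate 1 at 30°C, 17 snoRNAs had no read, 1 had between 1 and 29 reads, and 59 had 30 or more. In replicate 2, which held fewer mapped reads (944993 against 2217839), 1 snoRNA had no read, 19 had between 1 and 29, and 57 had 30 or more. The library with more mapped reads therefore listed fewer snoRNAs, but it also held fewer distinct cDNAs over all features (460829 against 537705). The *new1Δ* pair at 30°C was alike, with 13 at 0 and 1 between 1 and 29 in replicate 1, and 1 at 0 and 13 between 1 and 29 in replicate 2. Its replicate 1 held 467462 cDNAs and its replicate 2 538181. At 20°C, between 29 and 50 of 77 snoRNAs had no read in a tagged library, and 1 to 11 had between 1 and 29. In the same tagged 20°C libraries, 13.4% to 23.5% of the mRNAs with a read had between 1 and 29, and in the 30°C replicate 2 libraries with a tag 60.8% and 63.3%. A count of 0 allows up to 3 reads by counting error, if reads were independent. PCR copies are not, so fold bounds from this floor hold for listed reads and do not bound the change in distinct molecules. Why so few counts lay between 1 and 29 was not tested, and a 0 is read below only as no read listed.

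Of the 77 features, 52 had a read in each of the 4 tagged libraries at 30°C, but only 10 in each of the 6 at 20°C. The same 10 had a read in all 10 tagged libraries. They were the box C/D snoRNAs snR40, snR61, snR128 (U14), snR41, snR71, snR190 and snR17a (U3), and the box H/ACA snoRNAs snR3, snR37 and snR30. Another 10 had no read in any tagged library at 20°C (snR50, snR62, snR53, snR87, snR65 and snR74 of box C/D, and snR36, snR191, snR31 and snR5 of box H/ACA). Every member had a read in at least 1 tagged library. By class, 36 to 47 of the 47 box C/D snoRNAs had a read in a tagged 30°C library and 15 to 32 in a tagged 20°C library, and of the 29 box H/ACA snoRNAs 18 to 28 and 7 to 18.

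**Figure D1:**
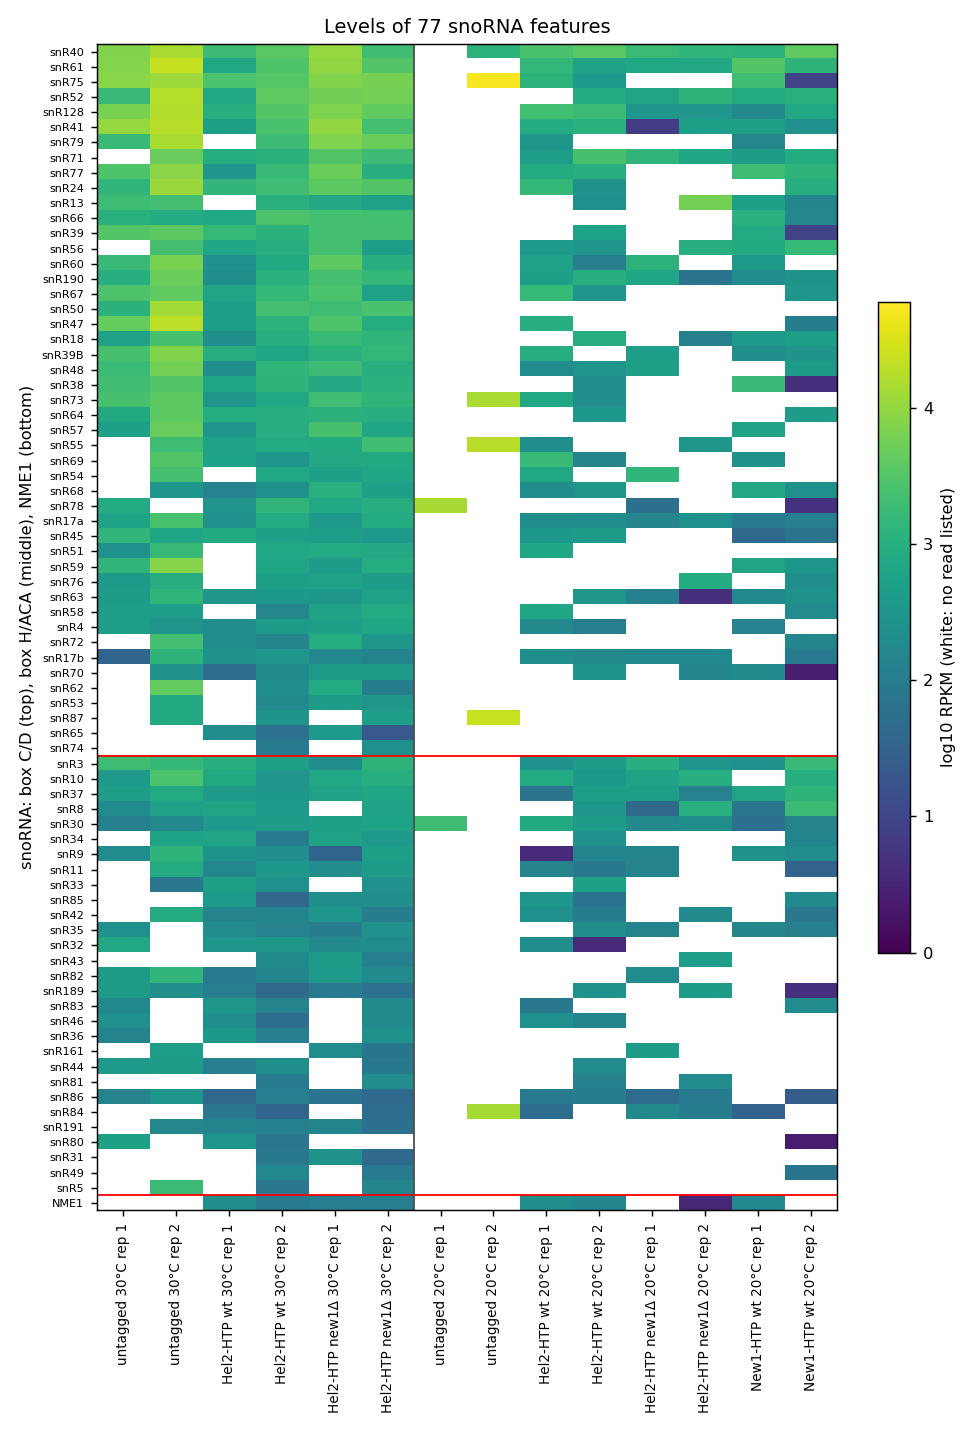
Levels of the 77 snoRNA features (rows, ordered within class by mean level in tagged libraries) in 14 libraries (columns), as log10 of RPKM (reads scaled to feature length and mapped reads), white where no read is listed. White cells are most frequent at 20°C, where 29 to 50 snoRNAs had no read in a tagged library, and the colours of the untagged libraries at 30°C are as bright as those of the tagged ones.

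Reads on snoRNAs made up a small share of every library, and no tagged group had a higher mean share than untagged cells of its temperature. The share of reads on all features was 0.303% and 0.490% in Hel2-HTP wildtype at 30°C and 0.853% and 0.619% in *new1Δ*. Untagged cells at 30°C gave 0.607% (95% Wilson interval 0.597% to 0.618%) and 1.99% (1.90% to 2.07%). The lower untagged value thus lay among the tagged ones and the higher above all of them. Tagged and untagged libraries had means of 0.566% ± 0.231 (SD, n = 4) and 1.30% ± 0.975 (SD, n = 2), a difference that did not pass a two-sided exact permutation test (p = 0.2, smallest possible p = 0.0667). It was -0.731 percentage points, and -0.0411 without untagged replicate 2. Outside rRNA features, all 4 tagged libraries (0.820% to 2.52%) lay below both untagged ones (2.84% and 6.38%), a difference of -2.97 percentage points with an exact permutation p of 0.0667.

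At 20°C, the share was 0.271% and 0.250% in Hel2-HTP wildtype, 0.148% and 0.185% in *new1Δ*, and 0.182% and 0.266% in New1-HTP. Untagged cells gave 0.183% from 2 reads and 1.17% from 1210 reads. All 6 tagged libraries therefore lay below the untagged library of usable depth. The means were 0.217% ± 0.0519 (SD, n = 6) with a tag and 0.676% ± 0.698 (SD, n = 2) without (exact permutation p = 0.179, smallest possible p = 0.0357). Counted as distinct cDNAs in place of reads, the difference had an exact permutation p of 0.0357, and without untagged replicate 2 its sign turned. Intervals cover counting error only, since PCR copies are not independent molecules, and a share is relative, so that more of one RNA and less of another cannot be told apart.

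The small nuclear RNAs of the spliceosome, another nuclear class with 6 features, made up 0.0322% to 0.0545% of reads in Hel2-HTP libraries and 0.118% and 0.120% in the untagged libraries at 30°C. New1-HTP libraries had 0.00678% and 0.0220%, and untagged replicate 2 at 20°C 0.626%. At 30°C each tagged library thus had a smaller share of these RNAs than both untagged ones.

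**Figure D2:**
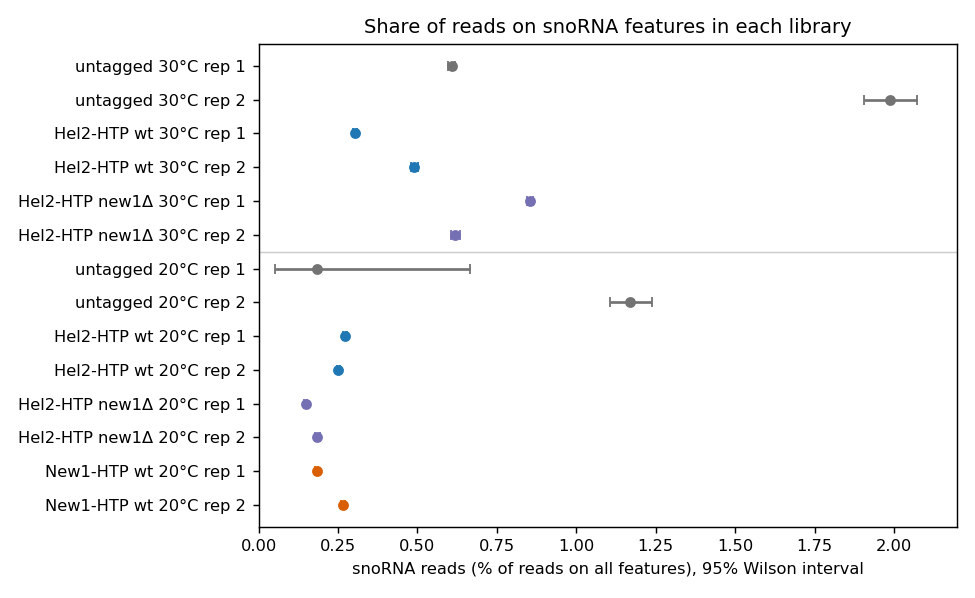
Share of reads on snoRNA features (percent of reads on all features) in each library, with 95% Wilson intervals for counting error. Untagged replicate 2 at 1.99% (30°C) and 1.17% (20°C) lies above all tagged libraries of its temperature, and the 4 Hel2-HTP libraries at 20°C (0.148% to 0.271%) lie below the 4 at 30°C (0.303% to 0.853%).

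Between temperatures, the snoRNA share of the Hel2-HTP libraries did not overlap. It was 0.214% ± 0.0571 at 20°C and 0.566% ± 0.231 at 30°C (SD, n = 4 each), a difference of -0.353 percentage points with an exact permutation p of 0.0286, the smallest that 4 against 4 libraries can give. Adjusted over the 7 tests of shares, p was 0.2. Without any 1 of the libraries at 20°C, the exact permutation p was 0.0571. New1-HTP and Hel2-HTP at 20°C had nearly the same mean share, 0.224% ± 0.0592 (SD, n = 2) and 0.214% ± 0.0571 (SD, n = 4), with an exact permutation p of 0.867. The sign of this difference turned with cDNAs in place of reads and with mapped reads or reads outside rRNA as the denominator.

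As a share of reads on all features, the order of *new1Δ* and wildtype was opposite at the 2 temperatures. At 30°C the share was higher in both *new1Δ* libraries than in both wildtype libraries (0.736% against 0.396% on average), and at 20°C it was lower in both (0.167% against 0.261%). Outside rRNA features this order did not hold at 20°C, where *new1Δ* had 0.369% and 0.595% and wildtype 0.576% and 0.568%, so that the strains overlapped. Over both temperatures, *new1Δ* and wildtype differed by 0.123 percentage points (exact permutation within temperature, p = 0.389, smallest possible p = 0.0556), by 0.0644 without *new1Δ* replicate 1 at 30°C, by 0.0763 without wildtype replicate 1 at 30°C and by 0.444 outside rRNA features. The difference between the 2 strain effects, -0.435 percentage points, had an exact permutation p of 0.0556, the smallest this design can give. Outside rRNA features it was -1.07 percentage points with an exact permutation p of 0.167.

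In their mean level per length, box C/D snoRNAs stood above box H/ACA snoRNAs in all 14 libraries, of which untagged replicate 1 at 20°C had 1 read in each class. Levels here are RPKM computed from the deposited reads, scaled to the feature's R64 length in kilobases and to the mapped reads of the library. In Hel2-HTP wildtype the mean over box C/D snoRNAs was 1.85 and 6.50 times that over box H/ACA snoRNAs at 30°C, and 4.16 and 2.73 times at 20°C. In *new1Δ* it was 13.2 and 4.96 times at 30°C and 1.66 and 2.02 times at 20°C, and in New1-HTP 8.23 and 1.49 times. The untagged libraries at 30°C, at 7.61 and 11.6 times, lay within the range of the tagged ones. The replicates of New1-HTP differed widely. Single members weighed on these means. Without the highest box C/D snoRNA of each library, the ratio in tagged libraries was 1.14 to 12.3, and that of *new1Δ* replicate 2 at 20°C fell to 1.18 without snR13. The median RPKM was 0 in both classes in both *new1Δ* libraries at 20°C, while in each other tagged library it was higher for box C/D.

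As a share of reads on both classes, box C/D took 61.2% ± 6.54 in Hel2-HTP at 20°C and 75.7% ± 13.0 at 30°C (SD, n = 4 each, exact permutation p = 0.114, smallest possible 0.0286). Without Hel2-HTP wildtype replicate 1 at 30°C, where box C/D took 57.5%, the exact permutation p was 0.0286. New1-HTP had 81.8% in replicate 1 and 50.2% in replicate 2, on either side of the 4 Hel2-HTP libraries (52.7% to 67.8%, exact permutation p = 0.8), and the sign of the difference turned without New1-HTP replicate 1.

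**Figure D3:**
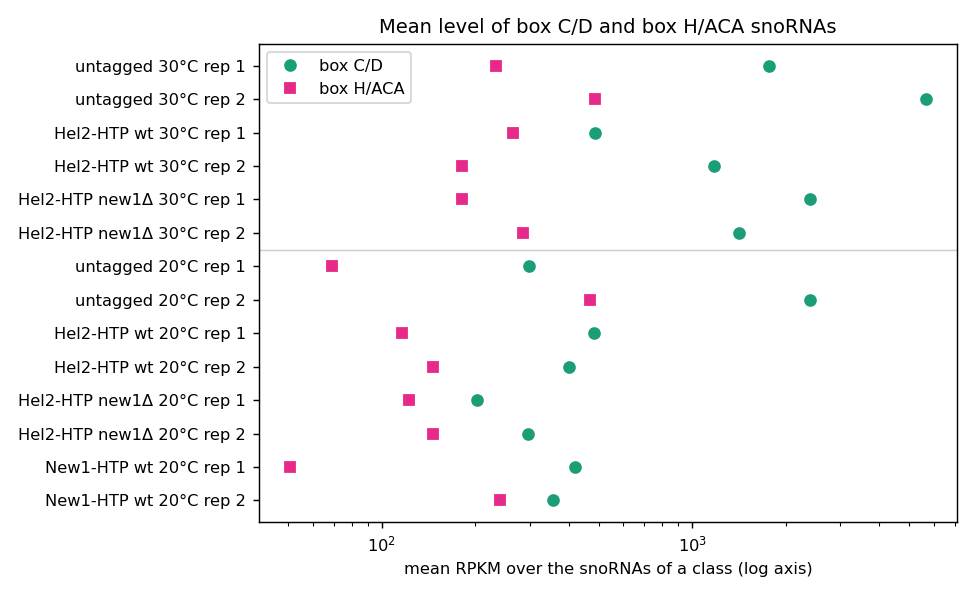
Mean RPKM over 47 box C/D and 29 box H/ACA snoRNAs in each library, on a log axis. The box C/D mean lies to the right of the box H/ACA mean in every library, by 1.49 times (New1-HTP replicate 2) to 13.2 times (*new1Δ* at 30°C, replicate 1), and the mean for untagged replicate 1 at 20°C rests on 1 read in each class.

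The 10 snoRNAs of highest mean RPKM over the 10 tagged libraries were all of box C/D. snR40 led with 3283 ± 2704 RPKM (SD, n = 10), followed by snR61 with 2447 ± 2754, snR75 with 2316 ± 2644, snR52 with 2094 ± 2204 and snR128 (U14) with 2086 ± 2205. snR41, snR79, snR71, snR77 and snR24 followed with means from 1884 down to 1300. Each SD was larger than the step to the next mean. These SDs pool both temperatures, both strains and both tagged proteins, and whether neighbours in this order differ was not tested. The order was not the same at both temperatures. At 30°C snR75 stood first with 4872 ± 2295 RPKM (SD, n = 4), ahead of snR40 with 4508 ± 4024, and at 20°C snR40 led with 2466 ± 1202 (SD, n = 6) and snR75 ranked 11 with 611 ± 843. snR79 ranked 7 at 30°C (3444 ± 3117) and 50 at 20°C (84.5 ± 143). snR13 ranked 31 at 30°C (600 ± 454) and 3 at 20°C (1145 ± 2364), where 1 library carried most of its level. The 10 highest were of box C/D at 30°C, and at 20°C they included snR3 and snR10 of box H/ACA. Among box H/ACA snoRNAs, snR3 stood highest (699 ± 505, rank 19), then snR10 (642 ± 330, rank 21) and snR37 (497 ± 339, rank 27). The 8 lowest were 7 box H/ACA snoRNAs and snR74 (35.1 RPKM, 29 reads over all tagged libraries).

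snR40, a methylation guide for 18S and 25S rRNA, had 410 and 336 reads in Hel2-HTP wildtype and 2744 and 185 in *new1Δ* at 30°C. At 20°C it had 357 and 1006 in wildtype, 276 and 123 in *new1Δ* and 192 and 962 in New1-HTP. In untagged cells there were 854 and 97 reads at 30°C but only 0 and 8 at 20°C. Scaled to mapped reads, the first untagged library at 30°C lay within the tagged range and the second above it. The 5 snoRNAs with most reads in untagged cells were snR75, snR41, snR128, snR61 and snR40, and all of them are also among the 10 highest in tagged cells.

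Rank orders of the 77 features were as alike between tagged and untagged libraries at 30°C as among the tagged ones. Spearman coefficients over the 77 RPKM values were 0.426 to 0.821 for the 8 tagged and untagged pairs (median 0.708) and 0.472 to 0.889 for the 6 pairs of tagged libraries (median 0.690). At 20°C the 15 pairs of tagged libraries had 0.146 to 0.620 (median 0.366). All points share feature length and annotation, and features are not independent replicates.

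U3, which base-pairs with pre-rRNA in the small subunit processome, had on snR17a 279 and 397 reads in Hel2-HTP wildtype and 483 and 392 in *new1Δ* at 30°C. On the same copy there were 163 and 306 in wildtype, 112 and 113 in *new1Δ* and 76 and 137 in New1-HTP at 20°C, and 340 and 84 in untagged cells at 30°C. snR17b had 293, 135, 216 and 63 reads in the same tagged libraries at 30°C and 19 and 40 in untagged cells. Both copies had reads with and without a tag.

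U14 (snR128), needed for 18S rRNA formation, had 283 and 369 reads in Hel2-HTP wildtype and 2447 and 485 in *new1Δ* at 30°C. At 20°C it had 380 and 659 in wildtype, 64 and 36 in *new1Δ*, and 36 and 221 in New1-HTP. Untagged cells at 30°C had 965 and 142. Relative to wildtype, U14 was thus higher in both *new1Δ* libraries at 30°C and lower in both at 20°C, but neither passed the test (log2 fold change 1.71 ± 0.74, SE, edgeR adjusted p = 1.0 at 30°C, and -2.30 ± 0.71, edgeR adjusted p = 0.422 at 20°C). Its neighbour snR190, transcribed together with U14, had 100, 197, 1204 and 271 reads in the tagged 30°C libraries and 135, 580, 190, 12, 61 and 133 in the tagged 20°C libraries, in the order of wildtype, *new1Δ* and New1-HTP. Untagged cells at 30°C had 230 and 62 reads on snR190.

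snR30, the box H/ACA snoRNA of 18S rRNA processing, had 495 and 247 reads in Hel2-HTP wildtype and 861 and 338 in *new1Δ* at 30°C, against 84 and 7 in untagged cells. At 20°C it had 693 and 773 reads in wildtype, 180 and 125 in *new1Δ*, and 55 and 196 in New1-HTP, and 1 and 0 in untagged cells. Scaled to mapped reads, the tagged libraries at 30°C did not overlap with the untagged ones, and the log2 fold change of wildtype over untagged was 2.15 ± 0.68 (SE) without passing the test (edgeR adjusted p = 0.232). New1-HTP lay below Hel2-HTP wildtype in both replicates (log2 fold change -2.59 ± 0.89, SE, edgeR adjusted p = 0.933).

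snR10, a pseudouridylation guide that also acts in pre-rRNA processing, had 72 to 460 reads in tagged 30°C libraries and 216 to 284 in Hel2-HTP libraries at 20°C, but 0 and 554 in the 2 New1-HTP libraries. Untagged cells at 30°C had 104 and 44. For snR45, an acetylation guide, untagged replicate 1 at 30°C stood at 1423 RPKM, above the tagged 30°C libraries at 391 to 807. Untagged cells at 30°C had 284 and 8 reads on it, and 105 and 4 on the other acetylation guide, snR4. These guides, snR4 and snR45, had 70 to 248 and 63 to 308 reads in tagged 30°C libraries. Both had reads in both wildtype libraries at 20°C (47 and 59 for snR4, 85 and 199 for snR45) and none in either *new1Δ* library there, without passing the test (edgeR adjusted p = 0.786 and 0.388). NME1, which cleaves pre-rRNA as part of RNase MRP and is neither box C/D nor box H/ACA, had 175, 30, 102 and 37 reads in the tagged 30°C libraries and none in any untagged library. It was at least 2.37-fold higher in Hel2-HTP wildtype than in untagged cells at 30°C, with 3 reads as the floor in each untagged library, and did not pass the test (edgeR adjusted p = 0.303).

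The comparison of Hel2-HTP wildtype with untagged cells at 30°C asks which snoRNAs the tag enriches. None of 76 snoRNAs tested passed an adjusted p of 0.05 by edgeR. Among all 5701 features, 1.11% passed, and all of these were higher with the tag. An unadjusted p under 0.05 was found for 5 snoRNAs, against 11.4% of all features. DESeq2 called 3 of the 61 snoRNAs to which it gave an adjusted p (snR41, snR47 and snR61, all lower with the tag), against 12% of all features. The median log2 fold change was -0.50 over snoRNAs and 0.62 over all features, with 26 snoRNAs fitted above 0 and 50 below. By class it was -0.94 for box C/D and 0.36 for box H/ACA. The lowest p belonged to snR47, a methylation guide with 105 and 114 reads in wildtype and 517 and 137 in untagged cells (log2 fold change -2.97 ± 0.93, SE, edgeR adjusted p = 0.222), followed by snR30.

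Without untagged replicate 2, which had 67981 mapped reads, 8 of 77 snoRNAs passed, against 8.26% of all features, and 7 of them were higher in Hel2-HTP (snR11, snR34, snR42, snR55, snR56, snR69 and snR71, each with no read in untagged replicate 1) and snR41 lower. Without untagged replicate 1, 4 of 77 passed, against 5.92% of all features, all lower (snR128, snR41, snR47 and snR61). Without wildtype replicate 2, snR79 alone passed, lower, against 1.04% of all features, and without wildtype replicate 1 none did, against 2.1%. In each of these fits 1 group holds a single library, which is assumed to vary like the libraries of the other groups.

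In a comparison without a fit, 4 of 77 snoRNAs had all 4 tagged libraries at 30°C above both untagged ones when scaled to mapped reads (NME1, snR30, snR65 and snR85), or 5.19%, against 8.82% of all features with a read. All 4 tagged libraries lay below both untagged ones for 15 of 77, or 19.5%, against 5.55% of all features. These were snR13, snR189, snR3, snR38, snR39, snR39B, snR41, snR44, snR47, snR59, snR67, snR73, snR75, snR82 and snR86, of which 10 are of box C/D. With reads outside rRNA features as the denominator the numbers were 4 (5.19%) and 21 (27.3%), against 8.14% and 6.52% of all features. With all reads on features as the denominator they were 4 (5.19%) and 12 (15.6%), against 9.003% and 5.26%. The share of rRNA was 63.0% to 67.2% in the tagged libraries and 78.6% and 68.9% in the untagged libraries, and its part in these counts was not tested.

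**Figure D4:**
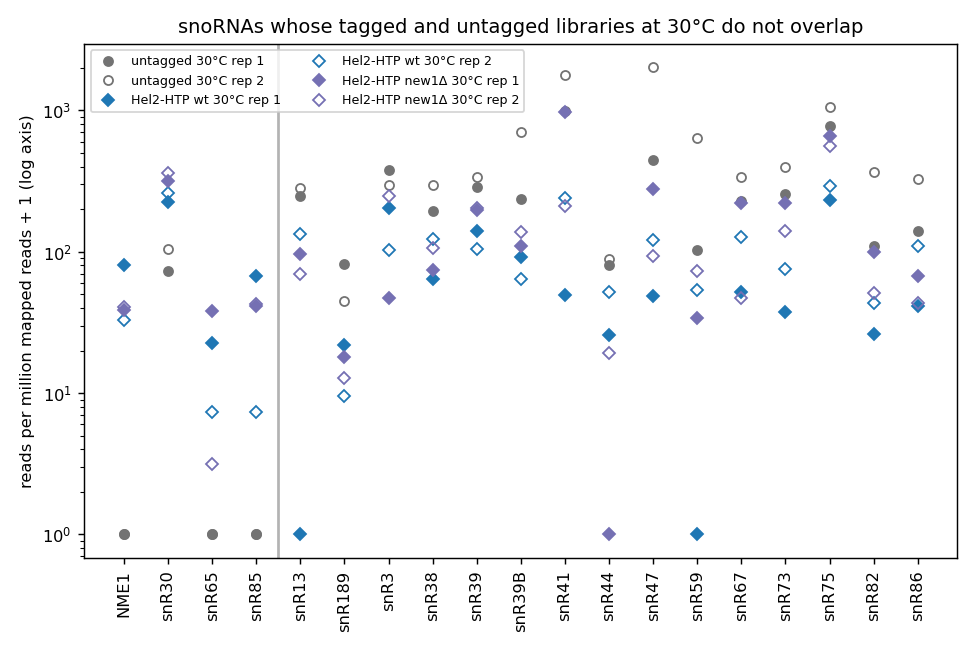
RPM (reads scaled to mapped reads), plus 1, on a log axis for the 19 snoRNAs whose 4 tagged libraries at 30°C (diamonds) do not overlap with the 2 untagged ones (circles), filled for replicate 1 and open for replicate 2. The 4 to the left of the line are higher with the tag and the 15 to the right lower.

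At 20°C no test against untagged cells was made for single snoRNAs, since untagged replicate 1 had 2 snoRNA reads. Of the 1210 snoRNA reads of untagged replicate 2, 491 lay on snR84, 318 on snR75, 170 on snR87, 121 on snR55, 102 on snR73 and 8 on snR40, and none on the other 71 features. snR87 had no read in any tagged library at 20°C, whereas snR75 had 157 and 101 reads in Hel2-HTP wildtype.

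In Hel2-HTP cells at 20°C, 2 of 77 snoRNAs (2.60%) differed between *new1Δ* and wildtype, against 0.583% of the 6350 features tested, and both were lower in *new1Δ*. snR75, a methylation guide for 25S rRNA, had 157 and 101 reads in wildtype and none in either *new1Δ* library. With 3 reads as the floor per library it was at least 27.8-fold lower in *new1Δ* (edgeR adjusted p = 0.00764, replicate as a block). Its reads in wildtype came from 19 and 7 cDNAs, and the floor counts reads, PCR copies included. The groups did not overlap. The 2 New1-HTP libraries, replicates of 1 group, had 289 and 2 reads. The same snoRNA at 30°C had 516 and 274 reads in Hel2-HTP wildtype, 1777 and 522 in *new1Δ*, and 893 and 72 in untagged cells, so there all 6 libraries had reads.

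snR24, which lies in the intron of *ASC1* and guides methylation of 25S rRNA, had 194 and 75 reads in wildtype and none in *new1Δ* at 20°C, and was at least 31.1-fold lower by the same floor (edgeR adjusted p = 0.0445). Its 75 reads in wildtype replicate 2 came from 2 cDNAs, and by numbers of cDNAs it did not pass (edgeR adjusted p = 0.171), whereas snR75 did. It had 0 and 215 reads in the 2 New1-HTP libraries, and 146 and 69 in untagged cells at 30°C. The host mRNA *ASC1*, which encodes a ribosomal protein, had 1847 and 4119 reads in Hel2-HTP wildtype against 2123 and 710 in *new1Δ* at 20°C, so the host had reads in libraries where the snoRNA had none.

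Of the 77, 16 had no read in any of the 4 libraries compared, and 12 had an unadjusted p under 0.05, against 4.93% of all features. The median log2 fold change was -0.24 over snoRNAs and -0.64 over all features. The 16 without a read were fitted at about 0, and of the others 40 were fitted below 0 and 21 above. By class the median was -0.62 for box C/D and 0 for box H/ACA. Neither snoRNA passed in a fit of the 4 libraries alone or without wildtype replicate 1, and snR24 did not pass without wildtype replicate 2 or without *new1Δ* replicate 1. Neither could be tested with at least 10 reads required in every library, and none of the 12 snoRNAs left then passed, against 4.83% of all features. DESeq2 called 11 of the 62 snoRNAs to which it gave an adjusted p, against 10.2% of all features, snR52 higher and 10 lower (NME1, snR24, snR4, snR45, snR67, snR68, snR69, snR73, snR75 and snR77).

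At 30°C none of 77 snoRNAs passed between *new1Δ* and wildtype by edgeR, against 0.0945% of features called, and 1 had an unadjusted p under 0.05, against 1.91% of all features. DESeq2 called 0 of the 44 snoRNAs to which it gave an adjusted p, against 3.75% of all features. The median log2 fold change was 0.93 over snoRNAs and -0.01 over all features, with 59 fitted above 0 and 18 below, and 1.29 for box C/D against 0.08 for box H/ACA. The lowest p values belonged to U14, given above, and snR79, a methylation guide with 0 and 150 reads in wildtype against 1603 and 382 in *new1Δ* (log2 fold change 5.77 ± 2.93, SE, edgeR adjusted p = 1.0). Untagged cells at 30°C had 171 and 85 reads on snR79. Without wildtype replicate 2, which leaves wildtype with no read, the log2 fold change of snR79 was 13.2. With all libraries kept, no snoRNA passed in any setting, against 0.0315% to 3.75% of all features. *new1Δ* replicate 1 had 35074 snoRNA reads, the most of the 14 libraries (the next had 11872), at 12.6 reads per cDNA.

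The effect of *new1Δ* itself differed between temperatures for snR75 alone among 77 snoRNAs (edgeR adjusted p of the interaction 0.0367), against 0.063% of features called. At 30°C its log2 fold change of 1.31 ± 0.70 (SE) did not pass, and at 20°C it had no read in *new1Δ*. Without the replicate as a block the call was lost (edgeR adjusted p = 0.0728). With the block, the edgeR adjusted p of the interaction was 0.181 without wildtype replicate 1 at 20°C, 0.131 without wildtype replicate 2 at 20°C and 0.0959 without *new1Δ* replicate 1 at 30°C.

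Between New1-HTP and Hel2-HTP in wildtype cells at 20°C, none of 55 snoRNAs tested passed by edgeR, against 0.0387% of 5172 features. An unadjusted p under 0.05 was found for 1 of them, against 3% of all features, and DESeq2 gave no snoRNA an adjusted p. The median log2 fold change was -0.71 over these snoRNAs and 0.03 over all features. snR30 had the lowest p, followed by snR59, which had 78 and 59 reads in New1-HTP and none in Hel2-HTP at 20°C. With the floor of 3 reads per library it was at least 23.3-fold higher in New1-HTP (edgeR adjusted p = 0.933). Its relative snR39 had 119 and 2 reads in New1-HTP and 0 and 155 in Hel2-HTP wildtype, which overlap. snR37, a pseudouridylation guide, was the top snoRNA of New1-HTP replicate 2 with 1194 reads and had 377 in replicate 1, against 37 and 509 in Hel2-HTP wildtype.

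Between Hel2-HTP wildtype at 20°C and 30°C, none of 77 snoRNAs passed by edgeR, against 0.189% of features called, and 7 had an unadjusted p under 0.05, against 3.5% of all features. The median log2 fold change was -1.55 over snoRNAs and -0.22 over all features, with 67 fitted below 0 and 9 above. snR66, a methylation guide, had 141 and 228 reads at 30°C and none at 20°C, and was at least 96.8-fold lower at 20°C (edgeR adjusted p = 0.0761). snR50, another, had 93 and 190 reads at 30°C and none at 20°C (at least 77.2-fold lower, edgeR adjusted p = 0.113). Untagged cells at 30°C had 109 and 5 reads on snR66 and 125 and 81 on snR50. With DESeq2, 5 of the 62 snoRNAs with an adjusted p passed, against 2.44% of all features, all lower at 20°C (snR50, snR57, snR66, snR78 and snR82). Leaving out any 1 of the libraries compared gave 2 to 5 calls, all lower at 20°C, and snR66 was among them each time. The share of all features called was then 0.273% and 0.604% without wildtype replicate 1 or 2 at 20°C, and 0.426% and 0.793% without replicate 1 or 2 at 30°C.

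Over all Hel2-HTP libraries of both strains, 15 of 77 snoRNAs (19.5%) had all 4 libraries at 20°C below all 4 at 30°C when scaled to mapped reads, against 2.1% of all features, and none had all 4 above, against 1.24%. The 15 were snR11, snR17a, snR191, snR38, snR39, snR4, snR50, snR55, snR57, snR64, snR65, snR66, snR72, snR75 and snR78. Of these, 13 are of box C/D. With reads on features as the denominator 15 were lower, against 1.96% of all features, and 0 higher, against 1.28%. With reads outside rRNA features 18 were lower, against 2.37%, and 0 higher, against 1.01%.

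Of the 77 features, 19 lay in 6 clusters of neighbours on 1 strand. The longest, on chromosome XIII, holds 7 box C/D snoRNAs that are cut from 1 precursor. snR75 had 3638 reads over the tagged libraries and snR77 had 2385, whereas snR74, between snR75 and snR73, had 29 and the others 373 to 1059. Untagged cells had 1283 reads on snR75 and none on snR74. Adjacent snoRNAs of the precursor thus differed widely both with and without a tag. At 20°C the wildtype libraries had reads on snR73, snR75 and snR77, and none on the other 4, and the *new1Δ* libraries had 8 reads on snR78 and 85 on snR76 and none elsewhere.

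**Figure D5:**
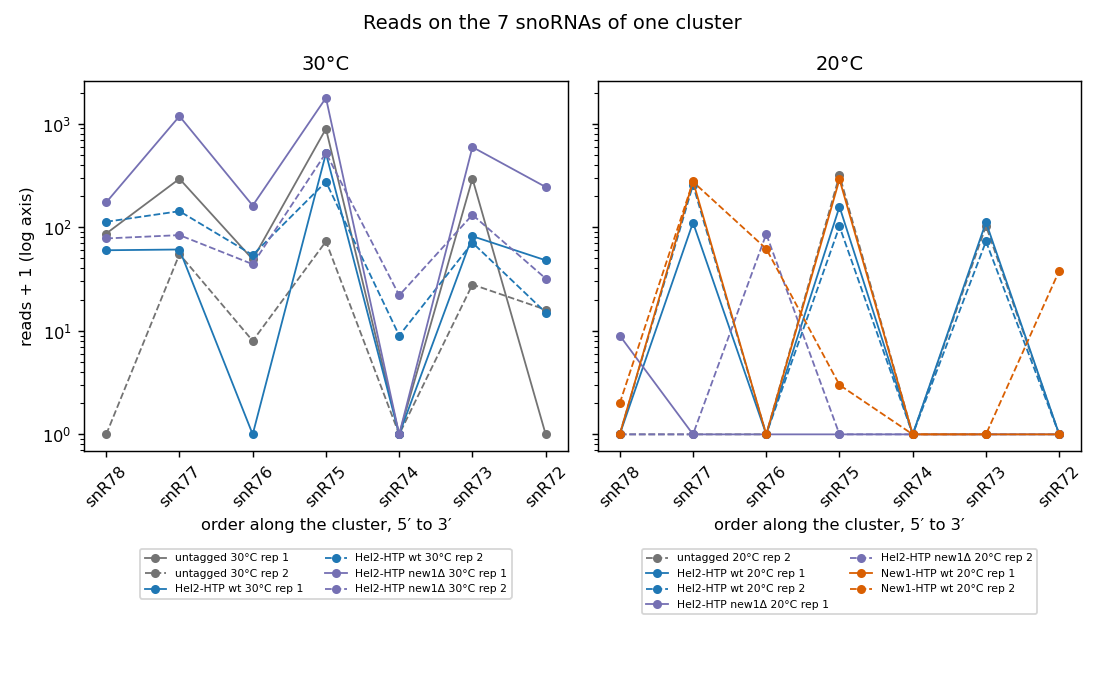
Reads plus 1, on a log axis, for the 7 snoRNAs of the chromosome XIII cluster in their 5′ to 3′ order, at 30°C and 20°C, 1 line per library (untagged 20°C replicate 1 left out for its depth). snR75 is the highest at 30°C in each library and snR74 the lowest or tied for it, at 0 to 21 reads, and the *new1Δ* libraries at 20°C are at 0 for snR73, snR75 and snR77.

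In the other clusters, levels also differed between neighbours. snR61 had a mean of 2447 RPKM, against 481 for snR55 and 490 for snR57 of its cluster, and snR41 had 1884, against 298 for snR51 and 170 for snR70. In snR67 and snR53 the means were 762 and 92.8. Box C/D snoRNAs in a cluster had a median of 515 RPKM (n = 18) and those that stand alone 584 (n = 29).

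The 8 snoRNAs in introns are released by splicing and debranching of their host pre-mRNA. snR18 (in *EFB1*), snR38 (in *TEF4*), snR39 and snR24 had reads in each tagged library at 30°C, and at 20°C in 4, 3, 3 and 3 of the 6. snR54 (in *IMD4*) had 0, 60, 115 and 54 reads in the tagged 30°C libraries, and snR44 (in *RPS22B*) 55, 48, 0 and 17. snR191 (in *NOG2*) had 88, 32, 106 and 14 at 30°C and none in any library at 20°C. The 8 ranged from 46.5 to 1300 RPKM in their mean over tagged libraries, with snR24 highest and snR191 lowest. The host *EFB1*, which encodes a translation elongation factor, had 188 to 2975 reads in tagged libraries, more than snR18 in each of them. Each host gene spans its snoRNA on the same strand, and whether host counts include reads in the intron was not tested.

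The other genes of this pathway were taken as 19 mRNAs that encode snoRNP proteins and their assembly factors (*NOP1*, *NOP56*, *NOP58*, *SNU13*, *CBF5*, *NHP2*, *NOP10*, *GAR1*, *RRP9*, *KRE33*, *NAF1*, *SHQ1*, *BCD1*, *HIT1*, *RSA1*, *TAH1*, *PIH1*, *RVB1* and *RVB2*). Of the 15 or 16 that could be tested in each of the 5 comparisons, none passed in either direction by edgeR. The share of all features called was 0.0387% to 1.11%. *NOP1*, the methyltransferase, and *SNU13*, 2 of 16, had an unadjusted p under 0.05 between *new1Δ* and wildtype at 20°C, against 4.93% of all features. *NOP1* had 1060 and 732 reads in *new1Δ* against 314 and 775, and *SNU13* 0 and 0 against 53 and 380. *NOP1* and *RVB1*, 2 of 16, did so between Hel2-HTP wildtype and untagged cells at 30°C, against 11.4%. Wildtype had 708 and 381 reads on *NOP1* against 135 and 13, and 233 and 77 on *RVB1* against 0 and 0. The lowest edgeR adjusted p was 0.132. DESeq2 called *NOP1*, *RVB1* and *SNU13* in the first of these comparisons, 3 of the 12 with an adjusted p, against 10.2% of all features. In the second it called *RVB1*, 1 of 11, against 12%. It called 0 of 11 between *new1Δ* and wildtype at 30°C, against 3.75%, and 0 of 12 between 20°C and 30°C, against 2.44%. Between New1-HTP and Hel2-HTP only 1 of the mRNAs had an adjusted p, and it was not called.

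snR13 in *new1Δ* replicate 2 at 20°C had 671 reads from 13 cDNAs, the highest number of reads per cDNA (51.6) of any snoRNA with at least 100 reads, and made up 26.2% of the snoRNA reads of that library. In tagged libraries snoRNAs had 3.80 to 12.6 reads per cDNA, against 2.60 to 8.79 over all features. The column of cDNAs also counts antisense reads, and snR43 is listed with 15 cDNAs and no sense read in Hel2-HTP wildtype replicate 1 at 30°C.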

How the data were processed

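Reads of 14 CRAC libraries were mapped with Novoalign by the authors and assigned to features with pyReadCounters (1.4.2 for the 30°C libraries, 1.4.4 for the others) without collapsing PCR duplicates. The deposited tables give, for each feature with a read, the count of sense reads, the count of distinct cDNAs (antisense ones included) and the sense RPKM, which the authors' software scaled by feature length and mapped reads. A feature absent from a library's table was set to 0 reads. Libraries were grouped by genotype and temperature from the labels.

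Sense read counts of all features were tested in edgeR 4.0.16 (quasi-likelihood F-test, TMM, filterByExpr, Benjamini-Hochberg over all features tested, threshold 0.05). The 8 Hel2-HTP libraries were fitted together for *new1Δ* against wildtype, with the replicate as a block, and for 20°C against 30°C without it. Comparisons with New1-HTP and with untagged cells were fitted on 6 libraries each without a block. Shares were compared by two-sided exact permutation tests over libraries. A count of 0 was given a floor of 3 reads per library in fold bounds. Since reads include PCR copies, these bounds do not hold for distinct molecules. Alternatives were DESeq2 1.42.0 or its size factors, other filters and denominators, cDNAs, only the libraries compared, the block added or dropped, and each library left out.

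The snoRNAs and gene lists were chosen with earlier results of these data known. Named were snoRNAs of special role or in introns, the 10 highest in tagged and 5 in untagged libraries, those that passed a test (or the 2 of lowest p), and, chosen after their values were seen, those with groups that did not overlap, those called only in an alternative setting, and others named for their counts.

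The replicate block follows the study, which sequenced each replicate in its own run and formed ratios within it. Deviations of same-numbered libraries from their group means correlated weakly (r = 0.031 and 0.074 over features for *new1Δ* and wildtype at 20°C and 30°C). Feature coordinates were taken from RefSeq R64, in which the length of all 77 features matched that implied by the deposited values within 1 base. The build used by the authors is not given in the sources used here. Scripts were tested on simulated data. New1-HTP cells lacking *HEL2* were not analysed here.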

Additional observations from a re-analysis of the deposited data

Results flagged for a closer look

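The share of reads on all features that lay on snoRNAs moved in opposite directions with *new1Δ* at the 2 temperatures. It differed from wildtype by -0.0943 percentage points at 20°C and by 0.340 at 30°C, with both *new1Δ* libraries on the same side of both wildtype libraries each time. The test of the difference, by exact permutation within temperature, gave p = 0.0556, the smallest this design allows. Outside rRNA features the strains overlapped at 20°C (*new1Δ* 0.369% and 0.595%, wildtype 0.576% and 0.568%), and the exact permutation p of the difference was 0.167. The *new1Δ* replicate 1 library at 30°C, which had the highest share of the tagged libraries (0.853%), also had 12.6 reads per cDNA, against 3.80 in replicate 2, and the part of this in the result was not tested.

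For snR75 the effect of *new1Δ* itself differed between temperatures (edgeR adjusted p = 0.0367), but not without the replicate as a block (edgeR adjusted p = 0.0728). The result rests on 157 and 101 reads, from 19 and 7 cDNAs, in wildtype at 20°C against no read listed in *new1Δ*. Of the 77 snoRNAs, 27 and 28 had a read in the *new1Δ* libraries and 41 and 47 in wildtype.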

How the results depend on the processing

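Depth limits the untagged controls most, and counts of 0 beside counts above 30 limit the fold changes of snoRNAs that have both. For *new1Δ* against wildtype at 20°C, the 2 snoRNAs called became 11 of 62 with DESeq2, against 10.2% of all features. When only the libraries compared were fitted the count was 0 of 44, against 1.74%. With at least 10 reads required in every library (a filter chosen after seeing the data) it was 0 of 12, against 4.83%. Fits with 1 library left out held a single library in 1 group, and calls in them are not counted here. For wildtype against untagged cells, the count of 0 became 3 with DESeq2, 4 with cDNAs, 4 with at least 10 reads in every library and 0 to 8 with 1 library left out. For 20°C against 30°C the count of 0 became 5 of 62 with DESeq2, against 2.44%, and 2 of 77 without a filter, against 0.248%. Dropping the replicate block left 2 of 77 at 20°C and 0 of 77 at 30°C for *new1Δ*, against 0.283% and 0.0315% of all features. Adding it left 0 of 55 for New1-HTP, against 0.619%, and 0 of 76 for untagged cells, against 2.81%. The block changed no call of these comparisons, but the interaction for snR75 had an edgeR adjusted p of 0.0728 without it.

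DESeq2 gave no snoRNA an adjusted p for New1-HTP against Hel2-HTP. The tagged minus untagged share at 30°C was -1.42 to -0.0411 percentage points with 1 library left out (the smallest without untagged replicate 2) and -2.97 outside rRNA features. At 20°C it was -0.430 percentage points with cDNAs (exact permutation p = 0.0357) and -0.953 to 0.0344 with 1 library left out (the positive value without untagged replicate 2), and -7.22 outside rRNA features (exact permutation p = 0.25). New1-HTP minus Hel2-HTP at 20°C was -0.00212 with cDNAs, -0.0812 outside rRNA features, -0.00593 of mapped reads (chosen after seeing the data), and -0.0312 to 0.0525 with 1 library left out, below 0 without *new1Δ* replicate 1 (-0.0112) or New1-HTP replicate 2. For *new1Δ* minus wildtype the range was 0.0644 to 0.181, and the value 0.444 outside rRNA features. The 20°C minus 30°C difference lay between -0.440 and -0.257 with 1 library left out and was -1.12 outside rRNA features. For box C/D, New1-HTP minus Hel2-HTP lay between -11.0 (without New1-HTP replicate 1) and 20.6 percentage points with 1 library left out, and 20°C minus 30°C between -20.5 (without wildtype replicate 1 at 30°C) and -10.3. The cause of these changes was not tested.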
